A study of Mus musculus with 8 samples.

Results

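The miR-26 family of mouse lung was measured as 2 array names, mmu-miR-26a and mmu-miR-26b, chosen by an exact match of the name. They are 2 of the 611 mouse miRNA names on the array, which carries 650 names with those of herpesviruses. The 8 one-colour arrays held lung RNA of female C57BL/6 mice that were pregnant during the exposure. The Printex 90 group (4 arrays) received carbon black nanoparticles in nanopure water through the trachea, in 4 instillations of 0.067 mg on days 7, 10, 15 and 18 of gestation, 0.268 mg in all. The vehicle control group (4 arrays) received nanopure water, and the lungs of both groups were taken at weaning, 26 to 27 days after exposure.

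MicroRNAs are short RNAs that guide Argonaute proteins to messenger RNAs, mainly through the seed, bases 2 to 8 counted from the 5′ end. The miR-26 hairpins lie within Ctdsp genes, which encode small phosphatases of the RNA polymerase II tail. miR-26a is known to repress Ezh2, the histone methyltransferase of the Polycomb complex. In human lung epithelial cells it also represses the messenger of the inflammatory cytokine IL6, and the uridylyltransferase ZCCHC11 lifts that repression by adding uridines to the 3′ end of the miRNA.

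The mature strands are shown because both names carry the same seed and differ at only a few bases, which bears on what the probes can tell apart. The sequences are those of RefSeq on GRCm38.p6, 5′ to 3′, with the seed in capitals.
miR-26a: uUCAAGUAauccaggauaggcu
miR-26b: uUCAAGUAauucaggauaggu
Counted from 1 at the 5′ end, miR-26b differs from miR-26a by the substitutions C11U and C21U, with the base of miR-26a first, and it ends after 21 bases where miR-26a has 22. The first 10 bases are identical. Among the 1679 mature mouse names of the RefSeq table only these 2 have this seed, and its complement, the core of a target site, reads UACUUGA.

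The hairpins are shown because miR-26a comes from a pair of loci that the array reads as one. The guide strand stands in capitals. The first hairpin, Mir26a-1, lies at chr9:119031796-119031885 on the plus strand within the span of Ctdspl, the second, Mir26a-2, at chr10:126995530-126995613 within Ctdsp2, and Mir26b at chr1:74394310-74394394 within Ctdsp1, all on the plus strand of GRCm38.p6.
Mir26a-1: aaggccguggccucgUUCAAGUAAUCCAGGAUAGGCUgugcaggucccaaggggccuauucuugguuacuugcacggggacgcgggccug
Mir26a-2: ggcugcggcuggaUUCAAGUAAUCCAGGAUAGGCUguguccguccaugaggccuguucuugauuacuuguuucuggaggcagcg
Mir26b: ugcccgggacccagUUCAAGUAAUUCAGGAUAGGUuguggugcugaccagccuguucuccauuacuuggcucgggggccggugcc
The guide of Mir26a-1 has the same 22 bases as that of Mir26a-2, so no signal of miR-26a can be assigned to either locus.

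Both miRNAs were bright on every array. miR-26a and miR-26b each had 2 probes of 10 spots, and of the 320 spots on the 8 arrays 299 were kept after outlier-flagged spots were removed. All 299 kept spots were well above background. Over the probes and arrays the median spot intensity was 1304 to 7925 units, where the median local background of the same spots was 17 to 22 units. The signal of miR-26a was 13.9 to 17.3 times the 75th percentile of the mouse miRNAs detected on all arrays, and that of miR-26b 5.04 to 5.89 times. Array signal depends on the probe as well as on the RNA, so the level of one name is not set against that of the other.

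For miR-26a the summed spot intensity, background-subtracted and before any scaling between arrays, was 9134, 11137, 9854 and 9647 units on Printex 90 arrays 1 to 4, against 11994, 9949.6, 10433 and 12753 units on vehicle control arrays 1 to 4. Relative to each array's 75th percentile, miR-26a measured 14.5, 15.5, 17.0 and 13.9 on the Printex 90 arrays, against 17.3, 15.7, 16.6 and 15.8 on the vehicle controls. Of the Printex 90 arrays 3 lay below the lowest control, while replicate 3 lay above all controls but replicate 1, so the groups overlapped. The group means were 15.2 ± 1.34 after Printex 90 and 16.4 ± 0.758 in vehicle controls (SD, n = 4 arrays each). The log2 difference, Printex 90 minus vehicle control, was -0.11 (SE 0.068, limma adjusted p = 0.706 over the 268 tested miRNAs), which is 0.928-fold with a 95% interval of 0.830 to 1.04. On the log2 scale the interval, -0.27 to 0.05, included 0. The difference did not pass the test, although its size was close to the SD within groups of 0.10 log2 units.

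For miR-26b the summed spot intensity before scaling was 3173, 4005, 3371 and 3535 units on Printex 90 arrays 1 to 4, against 4041, 3425, 3679 and 4738 units on vehicle control arrays 1 to 4. The relative signal was 5.04, 5.56, 5.80 and 5.09 on the Printex 90 arrays, against 5.83, 5.39, 5.85 and 5.89 on the vehicle controls. Replicates 1 and 4 were the low Printex 90 arrays for both miRNAs, and control replicate 2 lay below the other controls for both. The means were 5.37 ± 0.369 after Printex 90 and 5.74 ± 0.235 in vehicle controls (SD, n = 4 arrays each), with overlapping groups. The log2 difference was -0.10 (SE 0.056, limma adjusted p = 0.706), 0.935-fold with a 95% interval of 0.853 to 1.02. This difference did not pass the test either, and its size was slightly above the SD within groups of 0.082 log2 units.

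**Figure D1:**
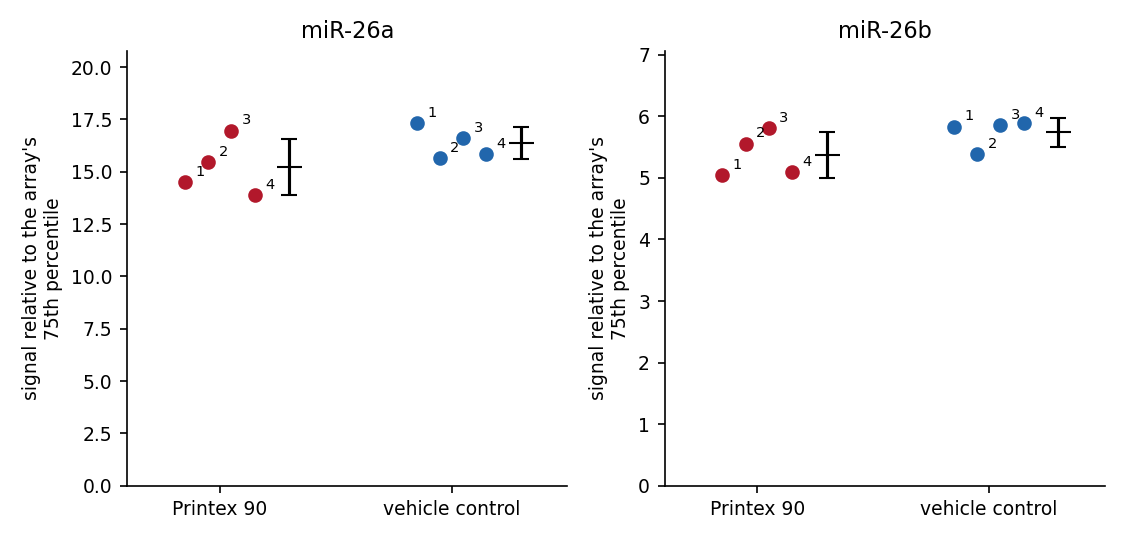
Signal of miR-26a (left) and miR-26b (right) relative to each array's 75th percentile, which has no unit. Points are arrays with their replicate numbers, bars are the mean ± SD of 4 arrays, and in both panels the Printex 90 points overlap the range of the vehicle controls.

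Exact permutation tests on the log2 values of the single miRNAs gave p = 0.171 for each (2-sided, 70 assignments of 4 and 4 arrays, smallest possible p 0.0286). No tested miRNA passed a limma adjusted p of 0.05 (0% called). At an unadjusted p under 0.05 there were 15 of 268, of which 7 were lower (2.61% of those tested) and none was a member. The groups overlapped for both members, where they did not overlap for 1.49% of the tested miRNAs, and for 0.373% with Printex 90 lower. A difference below 0 was common: 65.7% of the tested miRNAs were lower in sign after Printex 90, and the median log2 difference of all 268 was -0.05. Relative to that median the differences were -0.06 for miR-26a and -0.05 for miR-26b. Of the tested miRNAs 71 had a lower value than miR-26a. The sign of both members was the same under all 22 alternative settings for scaling, background, probes, spots, filters, models and left-out arrays, while the size moved with the scaling. Some settings could not move these differences and say nothing about their sign. These were both changes of the detection filter, the doubled floor, the limma trend and the replicate block. With the percentile taken over all mouse miRNAs the differences were -0.06 for miR-26a and -0.05 for miR-26b, and without scaling between arrays -0.18 and -0.17, where the median of all moved to -0.12. After quantile normalization they were -0.10 and -0.02.

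Single arrays also moved the size. Without Printex 90 replicate 3 the differences were -0.16 for miR-26a and -0.14 for miR-26b (limma adjusted p = 0.368 and 0.421), and the 95% intervals then lay below 0, from -0.29 to -0.03 and from -0.26 to -0.01. That array had the lowest 75th percentile of all, 580.8 intensity units, where the other arrays ran from 628.4 to 804.7, and the fewest detected mouse miRNAs (248, where the others had 251 to 283). Without Printex 90 replicate 4 the differences were -0.07 for each. The part of array brightness in these differences was not tested. Whether each array came from its own animal is not in the labels, so every p-value here refers to the spread among these 8 samples, which may be partly technical. Controls occupied slide row 1 and Printex 90 samples row 2 of 1 slide, and an effect of row cannot be told apart from one of exposure. In bulk lung RNA, fewer cells of a type and less RNA per cell cannot be told apart either.

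**Figure D2:**
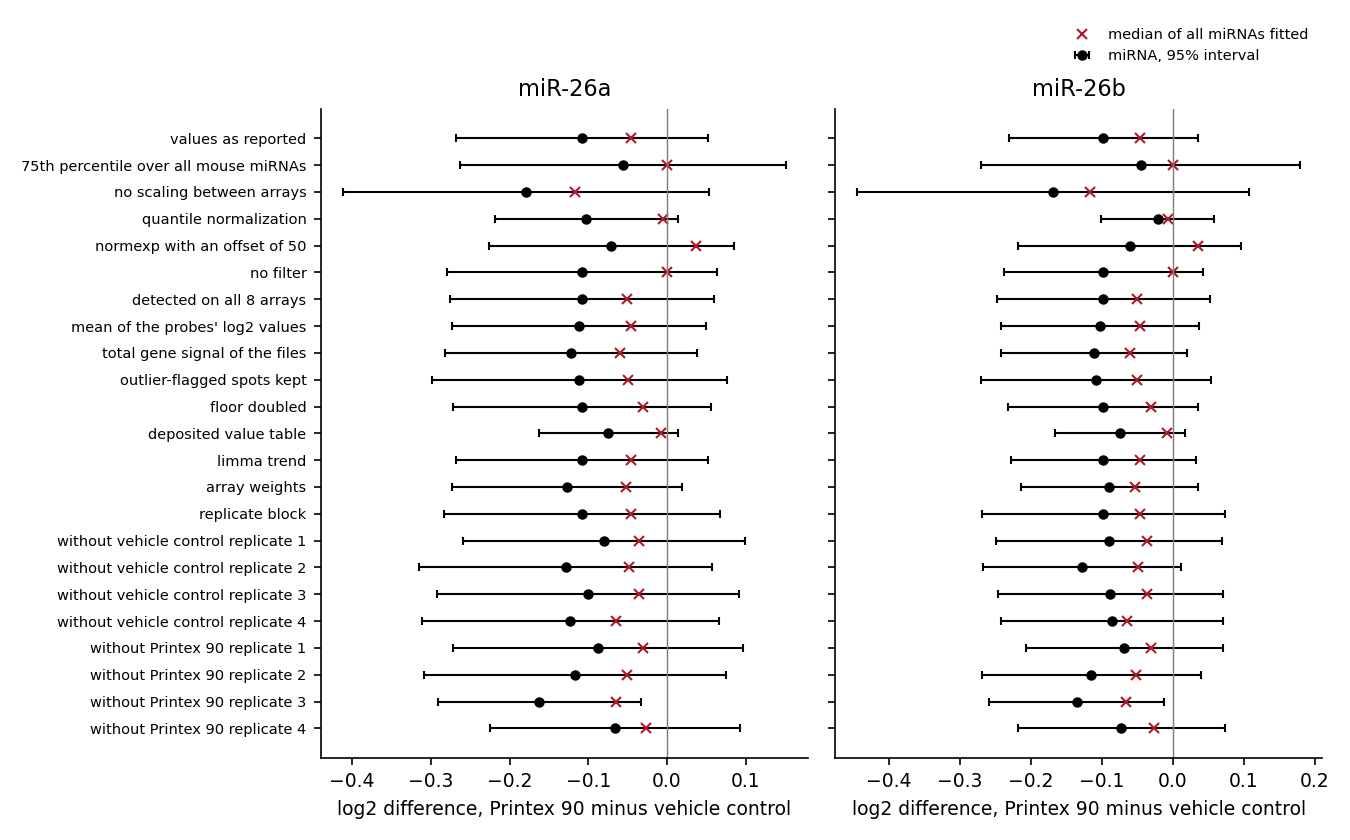
Log2 difference (Printex 90 minus vehicle control) of miR-26a and miR-26b for the values as reported and under each alternative, with limma 95% intervals as bars. Crosses mark the median of all miRNAs fitted under that setting. Every point lies below 0, and only without Printex 90 replicate 3 do both intervals end below 0.

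The deposited value table, in which the arrays had been quantile normalized, gave narrower ranges. There miR-26a was at 12.29, 12.23, 12.37 and 12.24 log2 units on Printex 90 arrays 1 to 4, against 12.38, 12.33, 12.39 and 12.33 on vehicle control arrays 1 to 4. miR-26b was at 10.76, 10.86, 10.81 and 10.81 log2 units on the Printex 90 arrays, against 10.88, 10.79, 10.94 and 10.93 on the vehicle controls. The groups overlapped for both, with Printex 90 replicate 3 above 2 controls for miR-26a and control replicate 2 below 3 Printex 90 arrays for miR-26b. The log2 difference was -0.07 for each (limma adjusted p = 0.675).

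The 2 probes of each miRNA gave the same picture. For miR-26a, probe A_54_P2481 measured 5.77 ± 0.501 after Printex 90 and 6.29 ± 0.301 in vehicle controls, a log2 difference of -0.13. Probe A_54_P4384 measured 9.43 ± 0.847 after Printex 90 and 10.1 ± 0.465 in vehicle controls, a log2 difference of -0.10 (relative signal, SD, n = 4 arrays each). For miR-26b, probe A_54_P2483 measured 2.10 ± 0.132 after Printex 90 and 2.29 ± 0.0979 in vehicle controls (log2 difference -0.13), and probe A_54_P2484 3.27 ± 0.239 after Printex 90 and 3.45 ± 0.143 in vehicle controls (-0.08). Within an array the probes of a miRNA moved together: the SD over the 8 arrays of the log2 ratio between probes was 0.032 for miR-26a and 0.038 for miR-26b. The log2 ratio of A_54_P2484 to A_54_P2483 averaged 0.64 ± 0.029 on Printex 90 arrays and 0.59 ± 0.027 on vehicle controls, a gap of 0.05 that was not tested.

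**Figure D3:**
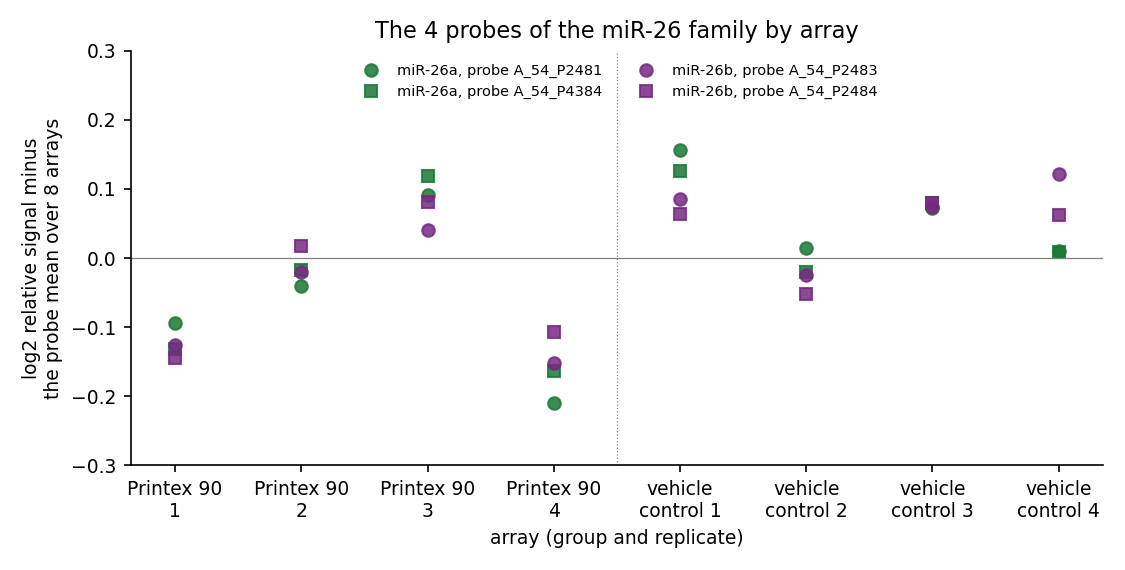
Log2 relative signal of the 4 probes on each array, minus that probe's mean over the 8 arrays. Green marks are the miR-26a probes and purple marks the miR-26b probes, with circles and squares for the 2 probes of a miRNA, and all 4 are lowest on Printex 90 arrays 1 and 4.

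The coefficient of variation between spots of a probe on an array had a median of 3.68% and ran from 0.369% to 5.79%, so the standard error of a probe's mean was at most 1.83%. Between arrays of a group the coefficient of variation of miR-26a was 8.79% after Printex 90 and 4.63% in vehicle controls, and that of miR-26b 6.86% after Printex 90 and 4.09% in vehicle controls. Single kept spots of a probe varied by 0.369% to 4.98% on Printex 90 arrays and by 2.28% to 5.79% on vehicle control arrays. The lowest value came from probe A_54_P2483 on Printex 90 replicate 4, where 6 of 10 spots were kept. Flagged spots were left out of these spreads, unevenly between the groups, so the groups are not compared in them. An array's value rests on the mean of a probe's spots. The like measure is the standard error above, at most 1.83%, which was below the spread between arrays in both groups. Outlier flags on the member spots fell unevenly: 19 of the 160 member spots on Printex 90 arrays (11.9%) were flagged, against 2 of 160 (1.25%) on vehicle controls. Over all spots of an array the flagged share was 2.51% to 2.78% on Printex 90 arrays and 2.25% to 2.65% on vehicle controls. Printex 90 replicate 4 alone held 9 of the 19. The flagged spots measured 0.823 to 1.15 times the mean of the kept spots of their probe, and with them kept the log2 differences were -0.11 for both miRNAs.

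Whether the members varied more or less between arrays than the median miRNA depended on the processing. With the 75th percentile scaling the SD within groups was 0.10 log2 units for miR-26a and 0.08 for miR-26b, where the median of the 240 miRNAs detected on all arrays was 0.12. Of those 240, 83 varied less than miR-26a and 55 less than miR-26b. With normexp background correction both members varied more than the median (0.105 for each, median 0.0756), and so did miR-26b with the percentile over all mouse miRNAs (0.142, median 0.135) and without scaling (0.175, median 0.174). Over the 8 arrays the highest signal of miR-26a was 1.25 times its lowest, that of miR-26b 1.17 times, and the median miRNA's 1.31 times. Of 6 miRNAs often taken as references in miRNA assays, miR-191 was detected on no array, and miR-103, miR-16, let-7a and miR-24 had SDs within groups of 0.06, 0.07, 0.08 and 0.09.

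**Figure D4:**
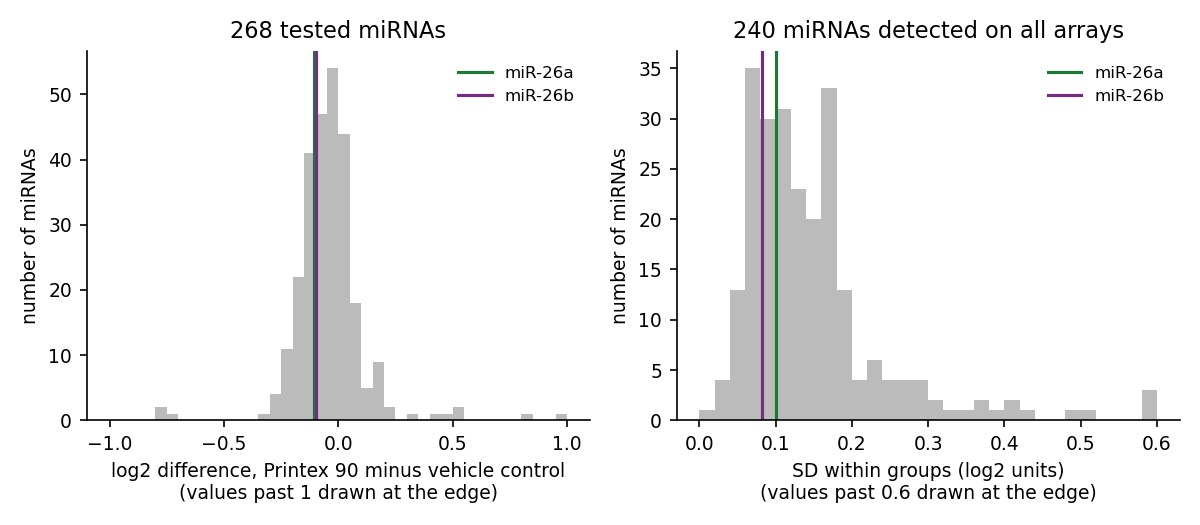
Left, the log2 difference (Printex 90 minus vehicle control) of the 268 tested miRNAs, with the members as lines. Right, the SD within groups of the 240 miRNAs detected on all arrays. Both lines lie inside the bulk of each distribution, at -0.11 and -0.10 on the left and at 0.10 and 0.08 on the right.

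The ratio of the paralogues does not depend on dividing an array by a single factor. It takes the probes of each name to read only their own strand, which was not tested. The log2 ratio of miR-26b to miR-26a was -1.53, -1.48, -1.55 and -1.45 on Printex 90 arrays 1 to 4, against -1.57, -1.54, -1.50 and -1.43 on vehicle control arrays 1 to 4. It averaged -1.50 ± 0.045 after Printex 90 and -1.51 ± 0.061 in vehicle controls (SD, n = 4 arrays each), and the groups overlapped almost fully. The difference was 0.01 (exact permutation p = 0.800, 2-sided). It was 0.08 after quantile normalization (exact permutation p = 0.314), and its sign changed without vehicle control replicate 1 (-0.01) and without Printex 90 replicate 4 (-0.01).

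Across the 8 arrays miR-26a and miR-26b correlated under the 75th percentile scaling. Pearson r was 0.891 (exact permutation p = 0.00838, adjusted 0.0335) and Spearman rho 0.738 (exact permutation p = 0.0458, adjusted 0.0667). The adjustment covered 4 p-values, those of r and rho over the 8 arrays and over the 6 arrays that follow. It left out the p-values of the other settings. Without vehicle control replicate 1 and Printex 90 replicate 4, the arrays farthest from the median of miR-26a, r was 0.858 (exact permutation p = 0.05, adjusted 0.0667) over 6 arrays and rho 0.714 (exact permutation p = 0.136). On deviations from the group means r was 0.845. The correlation depended on how arrays were scaled: it was 0.966 on the unscaled signal, -0.34 after quantile normalization (exact permutation p = 0.411) and 0.400 in the deposited value table (exact permutation p = 0.323). The points share the array, its brightness and its scaling factor. The strands differ by only 2 substitutions, so the probes of one name may also bind the other strand. The parts of these in the correlation were not tested.

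**Figure D5:**
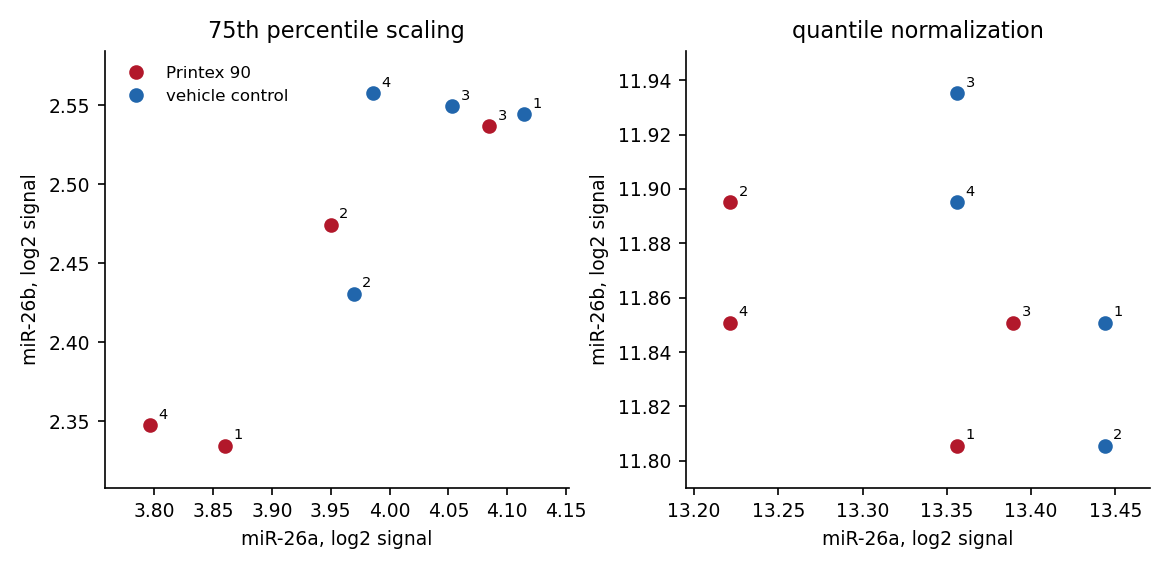
Log2 signal of miR-26a (x axis) and miR-26b (y axis) on each array, with replicate numbers, Printex 90 in red and vehicle control in blue. Left, values relative to the 75th percentile (r = 0.891). Right, quantile normalized values, which depend only on a miRNA's rank on its array and so fall on a few levels (r = -0.34).

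The miRNAs most like miR-26a over the arrays, by the smallest SD over 8 arrays of the log2 ratio to it, were miR-23a (0.034, r = 0.951), miR-30d (0.035, r = 0.948), miR-361 (0.037, r = 0.954), miR-30e* (0.043, r = 0.920) and miR-101a (0.046, r = 0.909). miR-26b itself stood at rank 7 of 239 by this measure (0.050), and the median of the 239 was 0.15. For miR-26b the nearest were miR-101a (0.029, r = 0.951), miR-23a (0.032, r = 0.960), miR-374 (0.034, r = 0.951), miR-30e* (0.035, r = 0.933) and let-7f (0.039, r = 0.911). miR-26a stood at rank 19. The log2 differences of these miRNAs ran from -0.13 for miR-30e* to -0.05 for let-7f, and none passed (limma adjusted p = 0.706 to 0.767). They share arrays and scaling with the members, so likeness here is a description over 8 arrays.

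The passenger strand miR-26b* was not detected. None of its 157 kept spots, from 4 probes, was well above background on any of the 8 arrays. Its mean spot intensity was 2.38 to 3.92 units on Printex 90 arrays and 1.80 to 3.17 units on vehicle controls, so no fold difference is given. The passenger strands of the miR-26a hairpins had no probe under the names searched and were not analysed here.

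miR-26a shares its target Ezh2 with other miRNAs. Of 16 miRNAs reported to repress it, the 2 members and the let-7 family included, 14 were tested, while miR-124 and miR-138 were detected on no array. None of the 14 passed in either direction (0% of all tested were called). Their median log2 difference was -0.04, where that of all tested miRNAs was -0.05. In sign, 12 were lower and 2 higher, where 65.7% of all tested miRNAs were lower. When the percentile was taken over all mouse miRNAs, 4 were lower and 10 higher. miR-101a, whose human counterpart represses EZH2 in prostate cancer cells, was the lowest at -0.12: it measured 1.70 ± 0.0973 after Printex 90 and 1.84 ± 0.0784 in vehicle controls (SD, n = 4 arrays each, limma adjusted p = 0.706). The highest was let-7e at 0.03 (limma adjusted p = 0.882), which turned negative without scaling (-0.04) and after quantile normalization (-0.04).

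All 5 miRNAs reported to repress Il6, a list that holds both members, were tested and 0 passed (0% of all tested were called). Their log2 differences ran from -0.11 for miR-26a to -0.02 for miR-142-3p, a miRNA of blood cells. Their median was -0.07, where that of all tested miRNAs was -0.05. All 5 were lower in sign, where 65.7% of all tested miRNAs were. However, 2 were higher in the deposited table and also with the percentile over all mouse miRNAs. Of the 5 tested reference miRNAs 0 passed (0% of all tested were called), with a median of -0.04. Among them miR-26b had the lowest difference (-0.10) and miR-103 the highest (0.002, limma adjusted p = 1), which was negative without scaling (-0.07) and under other alternatives.

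The tissue label was checked against marker miRNAs. The 6 lung and endothelial markers, among them the endothelial miR-126-3p and the epithelial miR-200c, the 4 leukocyte markers and the 3 erythroid markers were detected on all arrays. The neural miR-124 and miR-9 were detected on none, while the liver miR-122 was detected on 3 Printex 90 and 4 vehicle control arrays. Of the striated muscle markers, the cardiac miR-208a was detected on none, but miR-1, miR-133a and miR-133b on all arrays. miR-206 was detected on 3 Printex 90 and 4 vehicle control arrays. The summed relative signal of the leukocyte markers was 6.21 to 7.71 on Printex 90 arrays and 5.90 to 7.60 on vehicle controls. Most of that sum was miR-142-3p and miR-223. Singly the leukocyte markers differed in direction. The log2 difference was 0.50 for miR-155 (limma adjusted p = 0.706), 0.18 for miR-223, -0.02 for miR-142-3p and -0.14 for miR-150. The summed relative signal of the erythroid markers was 21.7 to 30.6 on Printex 90 arrays and 19.7 to 46.9 on vehicle controls. For the 5 striated muscle markers the sum was 0.313 to 3.06 on Printex 90 arrays and 0.380 to 1.91 on vehicle controls. None of these markers passed (0% called), and the part of cell content in the values of miR-26a and miR-26b was not tested.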

How the data were processed

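Lung RNA was labelled with Cy3 for 1-colour Agilent arrays, per the labels' protocols. Per the file headers, the scanner software was Feature Extraction 10.7.3.1 with grid 021828, and its processed intensity of each spot is background-subtracted but not normalized between arrays. The value table that the authors deposited is on the log2 scale. Quantile normalized log2 median spot signals, summarised by the median over a name's spots, matched it to within 5.00e-07.

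From the processed intensities, control and outlier-flagged spots were left out, spots were averaged per probe, and probes were summed per name. No spot was saturated. Detection needed 50% of a probe's kept spots well above background. Signals were scaled by the array's 75th percentile over 240 mouse miRNAs that every array detected, floored at 0.0388 (the 5th percentile of detected signals) and put on the log2 scale. Detection on 4 or more arrays left 268 mouse miRNAs for limma 3.58.1 (R 4.3.3), with Benjamini-Hochberg adjustment. Single values were compared with exact permutation tests (scipy 1.17.1). The limma step was tested on simulated data. Precision is limited by the number of arrays.

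Named miRNAs were the members, other strands of their hairpins, the 5 most alike to each member and the extremes of 3 lists. Members and lists were chosen with earlier results of these data known. Alternatives covered scaling, background, probes, spots, filters, models, the deposited table and left-out arrays. Normexp was run on the median signal, because a mean signal was not among the columns used here. Array names can be old, and RefSeq names matched both members and miR-26b*.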

Additional observations from a re-analysis of the deposited data

Results flagged for a closer look

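In 36 groups of 4 arrays, the gap between the extreme array and its nearest neighbour, divided by the range of the group, was compared with Dixon's 95% limit for 4 values. Chance passes that limit in about 1 of 20 groups, which gives 1.8, and 2 passed. miR-26b on vehicle control replicate 2 lay below the other controls (log2 relative signal 2.43, next 2.54, gap 0.897 of the range). One of its probes, A_54_P2484, did so on the same array (1.69, next 1.81, gap 0.865 of the range), so the 2 are not independent. Without that array the log2 difference of miR-26b was -0.13 (limma adjusted p = 0.837).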

How the results depend on the processing

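The log2 differences of miR-26a and miR-26b kept their sign and stayed short of the threshold under all 22 alternatives (-0.18 to -0.06 and -0.17 to -0.02). The changes of filter, the doubled floor, the limma trend and the replicate block could alter only the p-values, not the differences. Without single arrays they ran from -0.16 to -0.07 and from -0.14 to -0.07. With a replicate block the difference of miR-26a was -0.11 (limma adjusted p = 0.744) and that of miR-26b -0.10 (limma adjusted p = 0.744). Replicate numbers coincide with slide columns, and same-numbered arrays deviated together only in number 4 (r = -0.13, -0.38, -0.47 and 0.44 for numbers 1 to 4), so the numbers were not taken as pairs. Within columns 1 to 4 the difference of miR-26a was -0.25, -0.02, 0.03 and -0.19 and that of miR-26b -0.21, 0.04, -0.01 and -0.21.

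The group difference in the log2 ratio of miR-26b to miR-26a was 0.0004 to 0.08 over the other alternatives and, without single arrays, -0.0090 to 0.038 (-0.0060 without Printex 90 replicate 4). The correlation of the members was not seen after quantile normalization (-0.34, exact permutation p = 0.411), where the values fall on a few levels. It was weaker in the deposited table (0.400, exact permutation p = 0.323), and ran from 0.843 to 0.948 without single arrays. The number of miRNAs past the threshold was 0 under every alternative except without Printex 90 replicate 3, where it was 3, neither of the members among them. The SD within groups of miR-26b was 0.175 without scaling between arrays. No member of the 3 lists passed under any alternative.

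Signs of the small differences of other named miRNAs turned as follows. Without scaling between arrays let-7e was at -0.041 and miR-103 at -0.069. With the percentile over all mouse miRNAs let-7f was at 0.0066 and miR-142-3p at 0.033. With quantile normalization let-7e was at -0.040, miR-361 at 0.037 and miR-374 at 0.0013. With normexp miR-142-3p was at 0.023 and miR-361 and miR-374 at 0.025 each, and in the deposited table miR-142-3p was at 0.048 and miR-361 at 0.035. miR-103 was at -0.0065 with the mean of probes, -0.012 with the total gene signal, -0.0086 with flagged spots kept and -0.014 with array weights. Without single arrays let-7e ran from -0.022 to 0.073, miR-103 from -0.026 to 0.025 and miR-142-3p from -0.064 to 0.042. The cause was not tested. The alternatives for the correlation, the spread, the lists and these other miRNAs were chosen after seeing the data.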
